A study of Mus musculus with 20 samples.

Results

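The homeostatic chemokines and their receptors were followed across 5 lymph node positions of mice that lack mature T and B cells. The set holds 10 genes chosen by name: the ligands Ccl19, Ccl21a, Cxcl12 and Cxcl13, the signalling receptors Ccr7, Cxcr4 and Cxcr5, and the atypical receptors Ackr2, Ackr3 and Ackr4. Each name matched 1 of the 56258 rows of the gene table, and all 10 passed the filter on low counts, which kept 29411 genes. Whole lymph nodes of Rag1-/- mice (B6.129S7-Rag1tm1Mom/J) aged 9 weeks were sequenced as polyA RNA. Nodes of 4 gut positions gave 4 libraries each: duodenal, jejunal, ileal and ceco-colonic nodes, the last draining cecum and colon. The skin-draining inguinal node also gave 4 libraries and was the reference. Every group carried the same Rag1 mutation and no group had a further treatment, so lymphocyte-replete nodes were not compared here. Nothing in the labels tells whether the libraries of 1 position stem from different mice, so the p-values cover the spread between libraries, which may be technical.

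Homeostatic chemokines are made without inflammation and place cells inside lymphoid organs. CCL19 and CCL21, produced by fibroblastic reticular cells, high endothelial cells (CCL21) and lymphatic endothelium (CCL21), draw dendritic cells and naive T cells through CCR7. CXCL13 from follicular stroma draws B cells through CXCR5, and CXCL12 from stroma and endothelium acts on CXCR4. Their production in lymphoid stroma depends on lymphotoxin and the alternative NF-kB pathway. The atypical receptors bind chemokines without classical G protein signalling and remove them: ACKR4 takes up CCL19, CCL21 and CCL25, ACKR3 takes up CXCL12, and ACKR2 takes up inflammatory CC chemokines.

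Depth was 148.2 to 304.6 M (mega) estimated counts per library. The T cell gene Cd3e was near the floor, between 0.178 and 1.14 CPM (counts per M counts of the library) over the 20 libraries. Pdpn, which marks fibroblastic reticular and lymphatic endothelial cells, lay between 11.2 and 23.1 CPM, and Prox1 of lymphatic endothelium between 29.4 and 95.5 CPM, so node stroma was present in every library. The summed level of 10 pancreatic acinar genes ran from 10.09 to 34130 CPM in duodenal nodes, against at most 87.33 CPM elsewhere. The sum of 10 adipocyte genes reached 2781 CPM in jejunal library 2. In whole-node RNA, fewer cells of a type and less RNA per cell cannot be told apart.

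The CCR7 ligands and Cxcl12 were the most abundant members and the atypical receptors and Cxcr5 the least, on a length-corrected scale. TPM (transcripts per M transcripts, corrected for length), summed per gene and averaged over the 20 libraries, were 4317 for Ccl21a, 831.3 for Ccl19, 781.8 for Cxcl12, 584.1 for Ccr7, 96.16 for Cxcl13 and 50.64 for Cxcr4. Mean TPM was 16.61 for Ackr4, 4.871 for Ackr3, 4.154 for Ackr2 and 2.743 for Cxcr5. Even Cxcr5, the least abundant, rested on 173 to 1553 estimated counts per library.

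In gut-draining against inguinal nodes, 7 of the 10 members differed at an adjusted p under 0.05 (edgeR's quasi-likelihood test, Benjamini-Hochberg over all genes), against 26.3% of all genes tested. Ccl19, Ccl21a, Ccr7, Cxcr5 and Ackr4 were higher in gut-draining nodes, and Cxcl13 and Cxcr4 were lower. The background share was 13.4% for higher and 12.9% for lower genes. The members' median log2 fold change was 0.30, beside 0.002 for all genes. Among the 4 gut positions 6 members differed, against 21.3% of all genes. In small intestinal (duodenal, jejunal and ileal) against ceco-colonic nodes 5 members were lower and 0 higher, against 7.74% of all genes lower and 8.9% higher (16.6% together). There the members' median was -0.43, beside 0.0064 for all genes. The comparisons of gut positions with the inguinal node share the 4 inguinal libraries.

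Each gut position was also set against the inguinal node and against the other gut positions. Against inguinal nodes 6 members were called in duodenal nodes (25.3% of all genes), 4 in jejunal nodes (20.9%; 7 members by DESeq2), 5 in ileal nodes (22.6%) and 5 in ceco-colonic nodes (21%). Cxcl13, Ccr7 and Cxcr5 were called at all 4 positions. The share of all genes called at all 4 was not counted. Ackr2 was called at the duodenum alone (log2 fold change -0.67, edgeR adjusted p = 0.0362), and that call was lost without duodenal library 1 (0.114), 2 (0.0849) or 4 (0.109) or inguinal library 1 (0.104), 2 (0.0949) or 4 (0.0643). The Ccl19 call at the duodenum was lost without inguinal library 1 (0.0712), and the Ccl21a call at the jejunum without jejunal library 4 (0.0549). Between gut positions, 4 members were lower in duodenal than in ceco-colonic nodes (16.4% of all genes), 4 in jejunal than in ceco-colonic (12.2%) and 4 in ileal than in ceco-colonic (12.7%). Duodenal nodes differed from ileal nodes in 3 members (14.6%) and from jejunal nodes in Cxcl13 (2.83%). Jejunal and ileal nodes differed in 0 members (0.068% of all genes), also by DESeq2 and limma-voom, with 2 at an unadjusted p under 0.05.

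**Figure D1:**
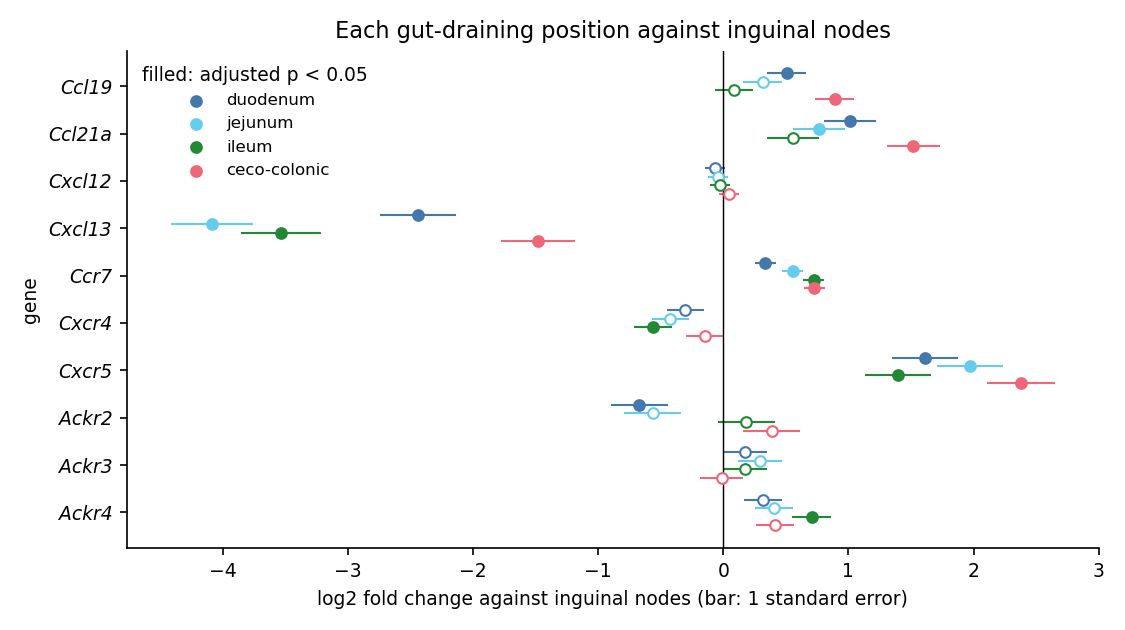
Log2 fold change of each member (rows) in each of the 4 gut positions against inguinal nodes, with bars of 1 standard error and filled points where the adjusted p was under 0.05. Cxcl13 lies left of 0 at all 4 positions (-4.09 to -1.48) and Cxcr5 right of it (1.40 to 2.38), while Cxcl12 stays within -0.07 to 0.05.

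Among the ligands, Cxcl13 had the widest range. It was at 190.7, 235.1, 174.4 and 182.0 CPM in inguinal libraries, at 53.49, 83.49, 65.57 and 77.66 CPM in ceco-colonic and at 49.1, 27.84, 42.02 and 25.64 CPM in duodenal libraries. Ileal libraries held 17.33, 19.3, 17.43 and 13.41 CPM, and jejunal libraries 19.74, 4.675, 12.42 and 9.15 CPM. All 16 gut libraries lay below all inguinal ones, and all 12 small intestinal libraries below all ceco-colonic ones. The log2 fold change was -2.88 ± 0.198 (standard error) in gut-draining against inguinal nodes (edgeR adjusted p = 7.47e-10) and -1.87 in small intestinal against ceco-colonic nodes (adjusted p = 3.43e-06). The position means fell in the order inguinal, ceco-colonic, duodenal, ileal and jejunal, 17-fold from first to last. Each step of this order passed the test except that from ileal to jejunal nodes, whose libraries overlapped.

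The gaps between the duodenum and other gut positions had adjusted p-values nearer the threshold. Duodenal nodes exceeded jejunal nodes by 1.65 (log2, edgeR adjusted p = 0.00867) and ileal nodes by 1.10 (adjusted p = 0.0169), and lay 0.95 below ceco-colonic nodes (adjusted p = 0.0289). In the fit that left out duodenal libraries 1 and 2, which held the most pancreatic RNA, the folds were of like size (1.55, 1.003 and -1.05) and the adjusted p-values were 0.0523, 0.103 and 0.077. The ceco-colonic gap also missed the threshold without duodenal library 2 (0.0998) or 4 (0.0837) and without ceco-colonic library 2 (0.0825), 3 (0.0522) or 4 (0.0747), and the ileal gap without duodenal library 1 (0.0534) or ileal library 4 (0.0594). The jejunal gap missed it in a fit of those 2 positions alone (0.174).

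Ccl21a, the dominant CCR7 ligand, was highest in ceco-colonic nodes. Its levels there were 3283, 3960, 3233 and 3303 CPM. They were 2576, 2228, 2405 and 2510 CPM in duodenal, 2069, 1172, 2187 and 2743 CPM in jejunal, 1637, 2026, 2156 and 1254 CPM in ileal and 823.1, 1216, 1559 and 1215 CPM in inguinal libraries. All ceco-colonic libraries exceeded the 12 small intestinal ones, and 14 of 16 gut libraries exceeded all inguinal ones. The log2 fold change was 0.96 ± 0.175 in gut-draining against inguinal nodes (edgeR adjusted p = 2.59e-04) and -0.74 in small intestinal against ceco-colonic nodes (adjusted p = 0.00279). No step between neighbours in the order ceco-colonic, duodenal, jejunal, ileal and inguinal passed the test.

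Ccl19, the second CCR7 ligand, followed the same order with a smaller span. It was at 522.2, 489.4, 411.7 and 435.1 CPM in ceco-colonic and at 352.6, 355.5, 346.5 and 367.5 CPM in duodenal libraries. Jejunal libraries held 309.0, 202.8, 333.0 and 400.6 CPM, ileal 276.7, 290.3, 288.6 and 207.9 CPM, and inguinal 195.0, 278.3, 270.7 and 257.4 CPM. The ceco-colonic libraries again lay above all small intestinal ones (log2 fold change -0.59 for small intestinal against ceco-colonic, edgeR adjusted p = 0.00171), whereas 13 of 16 gut libraries lay above all inguinal ones (0.45 ± 0.126, adjusted p = 0.0105). The gut-draining difference rested partly on inguinal library 1: without it the adjusted p was 0.0732, and without the 5 libraries numbered 1 it was 0.133. Here too no step between neighbouring positions passed the test.

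The 2 CCR7 ligands were high and low in the same libraries. The correlation of their log2 CPM was r = 0.946 over the 20 libraries and 0.912 after the position means were subtracted, as a description of libraries that share positions and scaling. Jejunal library 2 was the lowest jejunal library for both. Over the 20 libraries the genes most like Ccl21a, of 11646 compared, were Tacr1 (r = 0.971), Foxs1 (0.963), Lpar1 (0.947) and Ccl19. Those most like Ccl19 were Ifitm1 (0.95), Ccl19-ps1 (0.947), Ccl21a and Nxpe3 (0.939); Ccl19-ps1 is a pseudogene copy of Ccl19, and reads could be split between them. The TPM ratio of Ccl19 to Ccl21a was 0.172 ± 0.0204 (SD, n = 4) in ceco-colonic, 0.186 ± 0.012 in duodenal, 0.197 ± 0.0154 in jejunal and 0.194 ± 0.0218 in ileal nodes, and 0.27 ± 0.0356 in inguinal nodes. Every inguinal ratio (0.22 to 0.301) was above every gut ratio (0.157 to 0.219), though the nearest values almost touched. On these rows Ccl21a made up more of the ligand RNA in the gut nodes. This ratio left out reads assigned to the Ccl21 copies, and it had no test. Summed markers of the producing cells differed from the ligands in order. The sum of 10 fibroblastic reticular genes ran from 1991 to 2183 CPM in ceco-colonic and 1656 to 2082 CPM in inguinal libraries. In small intestinal libraries it ran from 1825 to 2411 CPM. Col3a1 (mean 1050 CPM) and Col1a1 (567 CPM) were its largest terms. Gene by gene, 4 of the 10 were lower and 1 was higher in small intestinal than in ceco-colonic nodes (7.74% and 8.9% of all genes). The sum of 10 lymphatic endothelial genes was lowest in ceco-colonic libraries (350.0 to 514.7 CPM). It was 576.0 to 655.4 CPM in inguinal and 551.1 to 1265 CPM in small intestinal libraries. The part of either list in the ligands' levels was not tested.

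**Figure D2:**
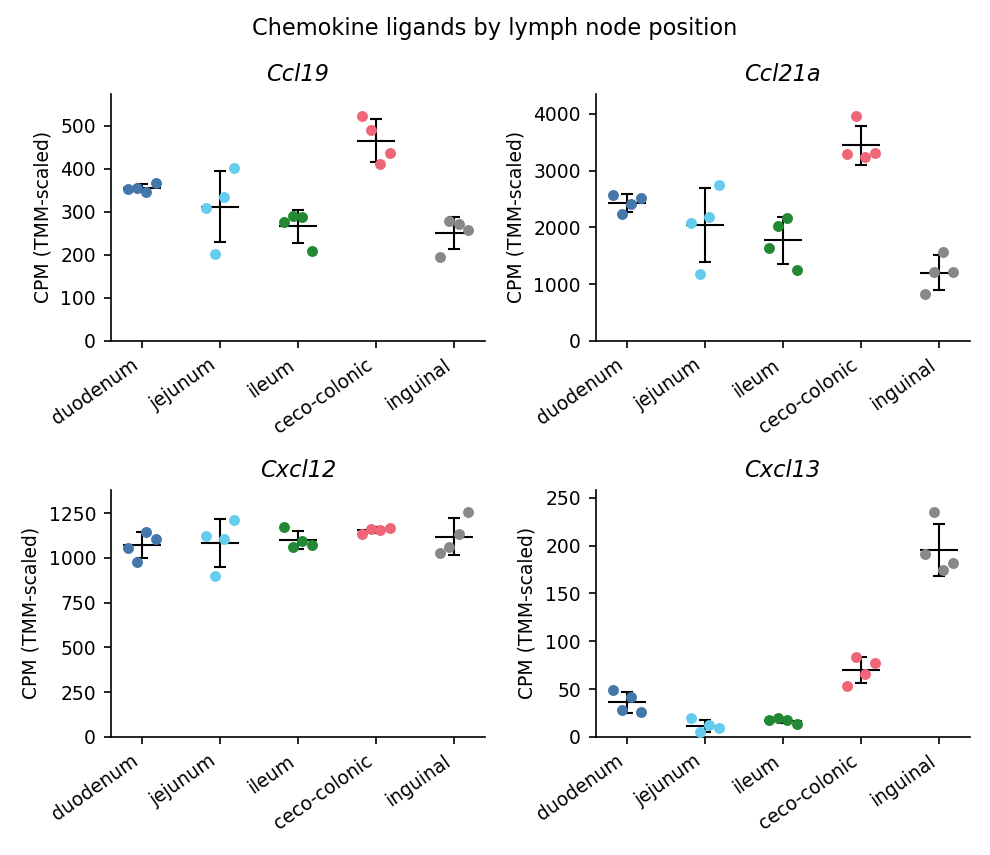
TMM-scaled CPM (y axis, linear) of the 4 ligands in each library by node position (x axis), with the mean and SD of 4 libraries as a black bar. Ceco-colonic points lie above all small intestinal points for Ccl19, Ccl21a and Cxcl13, inguinal points lie above all others for Cxcl13, and Cxcl12 is level across positions.

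Ccl21a has near-identical copies in the mouse genome, and the reads could be split among them. The coding sequences of Ccl21b, Ccl21d, Ccl21e and Ccl21f in the GENCODE vM21 annotation (build GRCm38, chromosome 4) were 99.5% identical to that of Ccl21a and carried the same 2 substitutions, T84A and C194T, counted from the first coding base with the Ccl21a base first. The Ccl21a transcript lies at chr4:42772860-42773993 on the minus strand and the Ccl21f transcript at chr4:42114817-42115917 on the plus strand. The second substitution falls in codon 65 and underlies the serine and leucine forms of CCL21. Coding bases 64 to 214 are shown to make plain how little sequence tells the copies apart, with the 2 differing bases in capitals.
Ccl21a: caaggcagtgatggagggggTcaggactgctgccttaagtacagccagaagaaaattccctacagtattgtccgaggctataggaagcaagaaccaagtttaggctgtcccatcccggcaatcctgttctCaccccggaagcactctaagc
Ccl21f: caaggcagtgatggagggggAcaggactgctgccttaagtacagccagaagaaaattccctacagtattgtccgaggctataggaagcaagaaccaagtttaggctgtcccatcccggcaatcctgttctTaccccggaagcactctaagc

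Estimated counts assigned to Ccl21f split by library number, not by node. Ccl21f stood at 271 CPM in duodenal, 271 in jejunal, 222 in ileal, 406 in ceco-colonic and 64.6 in inguinal library 1, and was at 0 CPM in the other 15 libraries. It made up 7.26% to 11.9% of the summed CPM of the copies in the libraries numbered 1. Ccl21f was the single gene of the table that exceeded 0.2 CPM in all 5 libraries of 1 number and was more than 10-fold above every other library; numbers 2, 3 and 4 had 0 such genes. Ccl21d, which is also among the lymphatic endothelial markers, had counts in all 20 libraries. It was at 7.93, 15, 11.6 and 10.4 CPM in ceco-colonic libraries and between 2.18 and 5.42 CPM in the others. The rows of Ccl21b and Ccl21e were identical in 20 of 20 libraries. What sets the libraries numbered 1 apart was not tested.

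The sum over the copies had the same order of positions as Ccl21a. The summed level was 3559 ± 342.8 CPM (SD, n = 4) in ceco-colonic and 2502 ± 260.8 in duodenal nodes. It was 2114 ± 669.3 in jejunal, 1827 ± 399.3 in ileal and 1222 ± 274.5 in inguinal nodes. The log2 fold change of the sum was 0.99 ± 0.173 in gut-draining against inguinal nodes (edgeR adjusted p = 0.000181) and -0.74 ± 0.16 in small intestinal against ceco-colonic nodes (adjusted p = 0.00255). The sum in ileal against inguinal nodes passed the test (0.58, adjusted p = 0.0469), which the Ccl21a row alone did not (0.56).

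**Figure D3:**
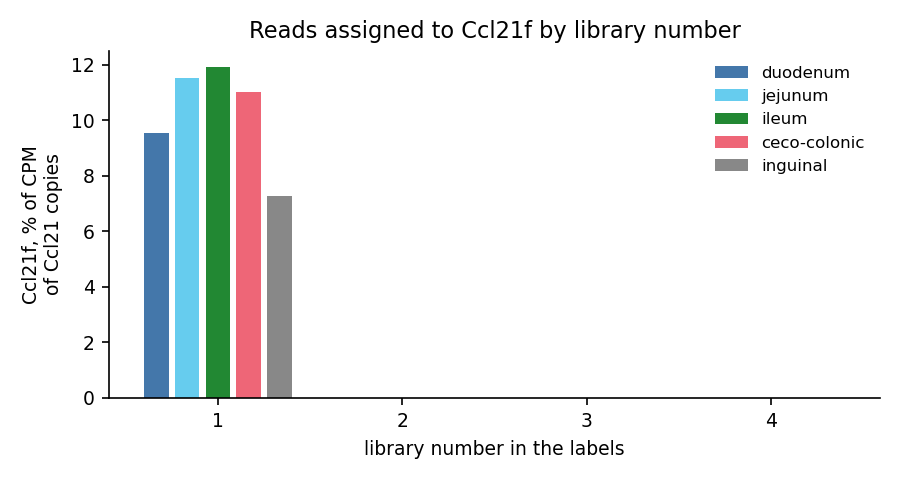
Share of the summed CPM of the Ccl21 copies that was assigned to Ccl21f (y axis, percent), 1 bar per library, grouped by the library number in the labels (x axis) and coloured by node position. The 5 libraries numbered 1 stand at 7.26% to 11.9%, and the other 15 at 0.

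Cxcl12 as a gene passed the test in none of the comparisons between positions. Its mean was 1070 ± 72.72 CPM (SD, n = 4) in duodenal, 1085 ± 133.3 in jejunal, 1099 ± 51.84 in ileal, 1155 ± 16.23 in ceco-colonic and 1120 ± 102.5 in inguinal nodes, a 1.08-fold span. The log2 fold change was -0.02 ± 0.0624 in gut-draining against inguinal nodes (edgeR adjusted p = 0.842), and the adjusted p among gut positions was 0.697.

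The transcripts of Cxcl12 did differ. Alternative last exons give CXCL12 isoforms with the same core and different C-terminal ends; the alpha form (Cxcl12-202) is the shortest, and the beta (Cxcl12-203) and gamma (Cxcl12-201) forms carry added basic residues that bind heparan sulphate. The coding sequences share 267 bases and then diverge, with 12 further bases in beta and 90 in gamma, in GENCODE vM21 (build GRCm38). The alpha transcript spans chr6:117168535-117175069 and the beta transcript chr6:117168574-117181366, both on the plus strand. The coding ends from base 228 are given without the stop codon, with the bases of each isoform's own end in capitals.
Cxcl12-202 (alpha): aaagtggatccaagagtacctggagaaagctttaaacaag
Cxcl12-203 (beta): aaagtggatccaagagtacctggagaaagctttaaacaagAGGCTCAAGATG
Cxcl12-201 (gamma): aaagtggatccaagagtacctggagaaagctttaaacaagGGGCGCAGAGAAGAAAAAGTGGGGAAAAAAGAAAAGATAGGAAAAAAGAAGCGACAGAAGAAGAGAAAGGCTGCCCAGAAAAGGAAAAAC

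The beta transcript took a larger share of Cxcl12 TPM in inguinal than in gut-draining nodes. It held 14.8%, 15.8%, 13.7% and 13.4% in inguinal libraries, 8.67%, 9.52%, 9.47% and 8.72% in duodenal, and 8.9%, 9.58%, 8.43% and 9.61% in ceco-colonic libraries. Jejunal libraries held 8.15%, 7.89%, 7.17% and 6.05%, and ileal libraries 6.81%, 7.25%, 6.36% and 7.32%. All 4 inguinal libraries were above all 16 gut libraries. The mean share was 14.4% ± 1.09 in inguinal (SD, n = 4) and 8.12% ± 1.18 in gut-draining nodes (n = 16). The exact two-sided permutation p of this difference was 0.000206, the smallest that 4845 splits can give (adjusted p = 0.00155 over 15 transcripts of the members). These splits took all libraries as exchangeable, whatever their gut position or library number. The alpha transcript moved the other way, at 81.8% ± 1.21 in inguinal and 89.1% ± 1.46 in gut-draining nodes, with the same p.

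In TPM, beta stood at 121 ± 8.25 in inguinal and 62.2 ± 11.6 in gut-draining nodes, and alpha at 692 ± 76.3 and 682 ± 68.8. The gamma transcript held 2.64% ± 0.139 of Cxcl12 TPM in inguinal and 2.04% ± 0.286 in gut-draining nodes, under the 5% share set for testing. The shares are model estimates. The 267 shared coding bases are a small part of the alpha (1878 bases), beta (3132 bases) and gamma (5627 bases) transcripts. The beta and gamma transcripts end at chr6:117181366 and chr6:117181367, so reads near that end could be split between them. On the authors' estimated counts in place of TPM, the beta share in gut-draining minus inguinal nodes was -8.74 percentage points (exact permutation, adjusted p = 0.00124). In inguinal nodes 6 of 10 blood and high endothelial markers were also higher (summed level 2382 to 2646 CPM, against 1593 to 2201 CPM in gut libraries). So were 4 of 10 smooth muscle markers (1058 to 1237 CPM, against 562.5 to 1759 CPM in gut libraries) and 12.9% of all genes. The part of these markers in the isoform share was not tested.

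**Figure D4:**
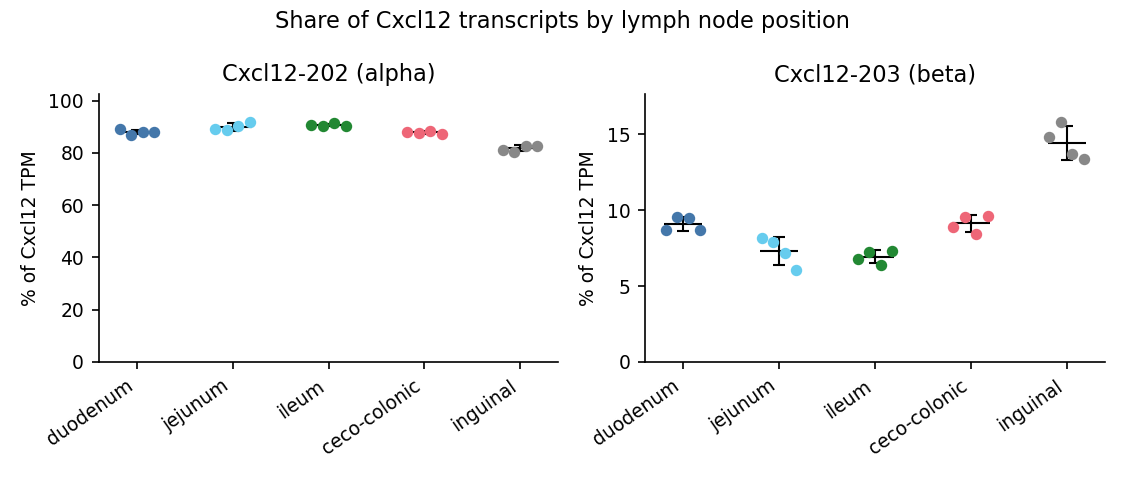
Share of Cxcl12 TPM (y axis, percent, from 0, with a separate scale in each panel) held by the alpha and the beta transcript in each library by node position (x axis), with the mean and SD of 4 libraries. For beta the 4 inguinal libraries (13.4% to 15.8%) lie above the 16 gut libraries (6.05% to 9.61%).

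Of the other members' transcripts, only the 358-base Cxcr5-205 differed in share between gut-draining (36.1%) and inguinal nodes (50.3%; exact permutation p = 0.00289, adjusted p = 0.0144). The adjusted p was 0.0671 without inguinal library 1 and 0.0774 without inguinal library 3. All Cxcr5 transcripts together stood at 0.8141 to 1.059 TPM in inguinal libraries, so this share rests on a low level. Transcript shares of genes outside the members were not tested. Tests on Ccl19, Cxcr4, Ackr2, Ackr3 and Ackr4 transcripts did not pass.

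Among the signalling receptors, Ccr7 was higher at every gut position. CCR7 is carried by dendritic cells that have left a tissue for its draining node, and by naive T cells, which these mice lack. Its levels were 628.0, 539.8, 508.3 and 550.2 CPM in inguinal and 745.8, 645.2, 674.2 and 744.3 CPM in duodenal libraries. They were 783.6, 786.2, 748.8 and 954.6 CPM in jejunal, 851.6, 955.2, 888.0 and 982.6 CPM in ileal, and 1021, 895.6, 900.9 and 865.0 CPM in ceco-colonic libraries. All 16 gut libraries were above all inguinal ones (log2 fold change 0.59 ± 0.0683, edgeR adjusted p = 1.32e-06). Within the gut, duodenal nodes were 0.39 below both ileal (adjusted p = 0.00468) and ceco-colonic nodes (adjusted p = 0.00248). Small intestinal against ceco-colonic nodes did not pass (-0.19, adjusted p = 0.0625), although they did without jejunal library 4 (0.0175) or duodenal library 1 (0.0456) and by DESeq2 (0.0436). The genes most like Ccr7 over the 20 libraries, of 11646 compared, were Atmin (r = 0.977), Pgap6 (0.964), Il4ra (0.963) and Nans (0.956).

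Of 12 markers of mature migratory dendritic cells 6 were higher and 0 lower in gut-draining nodes (13.4% and 12.9% of all genes), led by Cd274 (PD-L1, log2 fold change 0.64), Il4i1 (1.10) and Ccl22 (0.55). In small intestinal against ceco-colonic nodes 9 of the 12 were lower (7.74% of all genes), led by Il12b (-1.89) and Ccl17 (-1.16). The list's summed level was 4064 to 4329 CPM in inguinal, 3867 to 5242 CPM in duodenal, 4432 to 6528 CPM in jejunal, 4900 to 6900 CPM in ileal and 6193 to 6485 CPM in ceco-colonic libraries. The duodenal median (3974 CPM) lay below the inguinal one (4285 CPM), although Ccr7 was higher in duodenal nodes. The list's part in the Ccr7 level was not tested.

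Ccr7 and its ligands were correlated across positions more than within them. The Pearson correlation of Ccl21a with Ccr7 was 0.528 over 20 libraries and -0.07 after the position means were subtracted, and that of Ccl19 with Ccr7 was 0.378 and 0.046. The TPM ratio of Ccl21a to Ccr7 was 10 ± 1.35 (SD, n = 4) in ceco-colonic and 9.25 ± 0.214 in duodenal nodes, and 6.63 ± 1.79 in jejunal, 5.9 ± 1.92 in inguinal and 5.17 ± 1.3 in ileal nodes. Both duodenal and ceco-colonic ranges (9.01 to 9.53 and 8.59 to 11.8) lay above those of the other 3 positions (at most 8.19).

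Cxcr5, the CXCL13 receptor, ran against its ligand between gut and inguinal nodes. Cxcr5 is known from B cells and follicular helper T cells, and also from lymphoid tissue inducer cells, which do not need Rag1. Its levels were 0.9446, 0.8617, 1.087 and 1.118 CPM in inguinal, 5.796, 4.557, 4.436 and 6.026 CPM in ceco-colonic and 2.519, 2.513, 2.723 and 4.503 CPM in duodenal libraries. Jejunal libraries held 3.786, 1.677, 5.519 and 4.72 CPM, and ileal libraries 2.561, 2.425, 3.067 and 2.508 CPM. Every gut library was above every inguinal one (log2 fold change 1.84 ± 0.232, edgeR adjusted p = 3.59e-06). The TPM ratio of Cxcl13 to Cxcr5 was 321 ± 84.2 in inguinal nodes and 4.9 ± 2.39 (jejunal) to 22.2 ± 6.1 (ceco-colonic) in gut nodes (SD, n = 4).

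Within the gut the Cxcr5 calls were weak. Small intestinal nodes lay 0.72 below ceco-colonic nodes (log2, edgeR adjusted p = 0.0155) and the adjusted p among gut positions was 0.0285. The first rose to 0.0614 and 0.0747 without ceco-colonic library 1 or 4, and to 0.137 without the libraries numbered 1; the second rose to between 0.0549 and 0.0863 without ileal library 1, 2 or 4 or ceco-colonic library 1 or 4. With transcript counts summed per gene they were 0.0867 and 0.161.

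Markers of cells that could carry Cxcr5 were called in both directions, beside 13.4% of all genes higher and 12.9% lower. Of 10 B cell genes 2 were higher in gut-draining nodes (Ms4a1, at 2.538 against 0.6493 CPM, and Blk, at 1.836 against 0.474 CPM) and 3 were lower, among them Ighm (-0.38). Of 10 genes of type 3 innate lymphoid and inducer cells 2 were higher, Tox2 (1.42) and Il22 (5.18, from 0.02484 CPM in inguinal nodes), and Ncr1 was lower (-0.38), a share close to the 26.3% of all genes called. Their summed level overlapped between gut (735.5 to 938.6 CPM) and inguinal libraries (778.6 to 863.3 CPM). Over the 20 libraries the genes most like Cxcr5 were Gsr (r = 0.957), Hif1a (0.953), Ddr1 (0.947) and Shisa3 (0.946).

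Cxcl13 had other neighbours. Over the 20 libraries Myb (r = 0.956), S100a4 (0.954), Gpr141 (0.952) and S100a6 (0.95) were most like it; after the position means were subtracted, Gart (0.895), AU021092 (0.875), Mcm4 (0.861) and Top2a (0.853) were. Cxcl13 and Cxcr5 had r = -0.456 over the 20 libraries and 0.32 within positions. By rank (Spearman) the values were -0.289 and -0.048. Of 9 tested markers of follicular dendritic and marginal reticular cells, 3 were higher and 2 lower in gut-draining nodes (13.4% and 12.9% of all genes). Among the higher was Madcam1, the mucosal addressin (78.58 against 3.772 CPM, log2 fold change 4.29, edgeR adjusted p = 1.75e-12). Tnfsf11, which encodes RANKL, was also among them (43.24 against 21.44 CPM). The lower genes were Fcer2a (-1.02) and Enpp2 (-0.70). The list's summed level overlapped between inguinal (2828 to 3460 CPM) and gut libraries (2418 to 3871 CPM). Cr2, a defining marker of follicular dendritic cells, lay between 0.464 and 2.66 CPM over all libraries, and Fcer2a between 0.787 and 2.54 CPM.

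Cxcr4 was slightly lower in gut-draining nodes. It stood at 59.1, 56.56, 68.35 and 69.56 CPM in inguinal, 36.58, 41.15, 49.02 and 45.25 CPM in ileal and 42.6, 34.98, 50.74 and 61.04 CPM in jejunal libraries. Duodenal libraries held 40.76, 48.41, 49.07 and 67.47 CPM, and ceco-colonic libraries 52.0, 54.26, 60.8 and 61.56 CPM. The groups overlapped, with 12 of 16 gut libraries below all inguinal ones, and the log2 fold change was -0.36 ± 0.117 (edgeR adjusted p = 0.0273). The adjusted p was 0.0991 without inguinal library 3, 0.106 without inguinal library 4 and 0.0871 without the libraries numbered 1. Of the gut positions taken singly, only the ileum passed (-0.56, adjusted p = 0.00988). With the replicate number as a block, the edgeR adjusted p was 0.000809 in gut-draining nodes, and duodenal (0.0175) and jejunal nodes (0.00202) passed too. The labels do not say what the number stands for. Cxcl12 and Cxcr4 had r = 0.525 over the 20 libraries and 0.574 within positions.

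**Figure D5:**
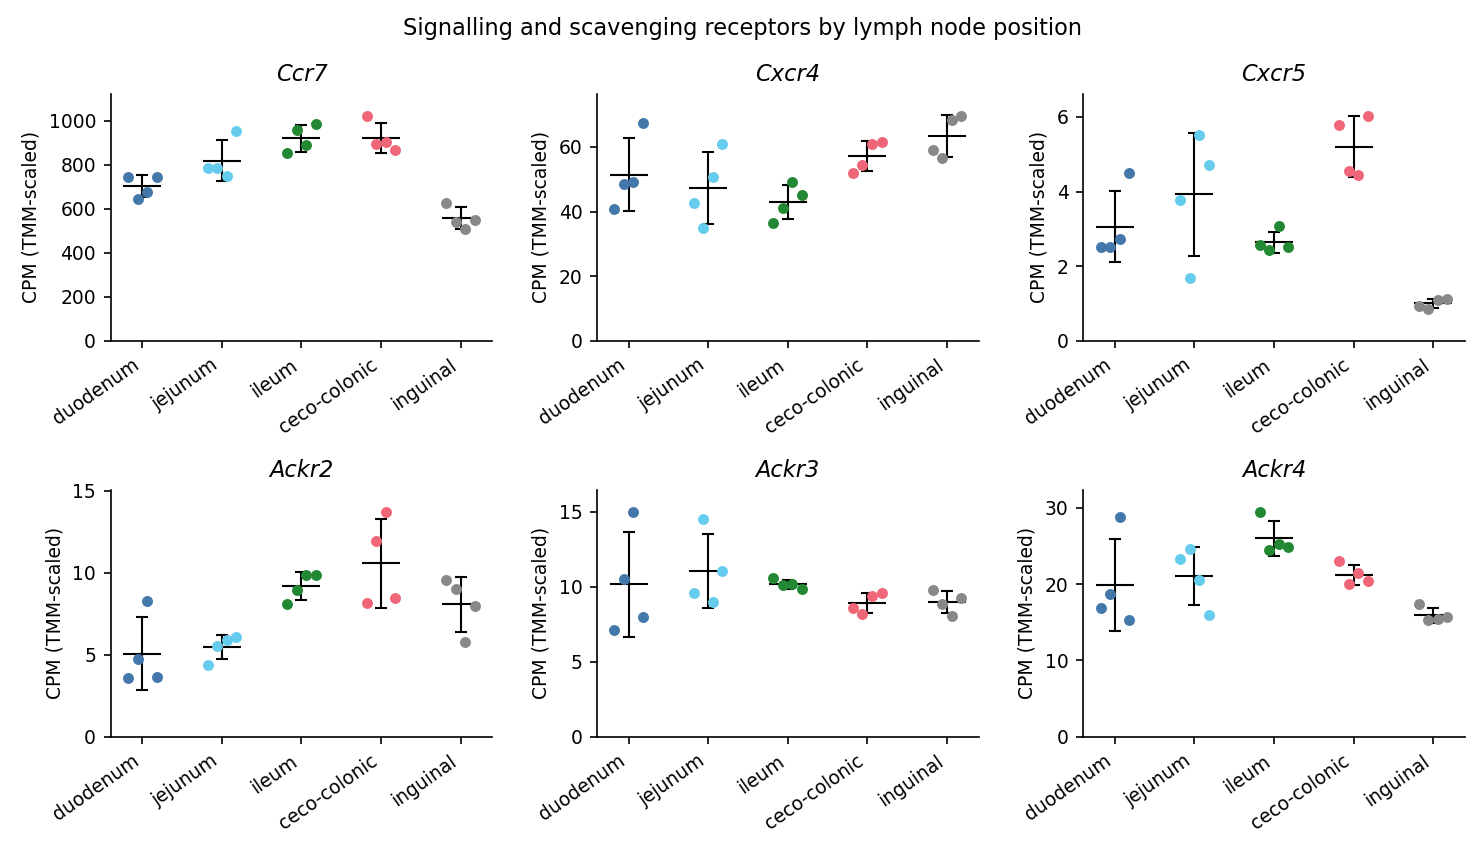
TMM-scaled CPM (y axis, linear) of the signalling and atypical receptors in each library by node position (x axis), with the mean and SD of 4 libraries as a black bar. The 4 inguinal libraries lie below all 16 gut libraries for Ccr7 and Cxcr5 and overlap with them for the other 4 receptors.

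Of the atypical receptors, Ackr4 was higher in gut-draining nodes. ACKR4 on ceiling lymphatic endothelium of the node sinus shapes the gradient of CCR7 ligands. Ackr4 was at 17.4, 15.29, 15.39 and 15.72 CPM in inguinal and 29.44, 24.4, 25.29 and 24.89 CPM in ileal libraries. Jejunal libraries held 23.29, 24.57, 20.48 and 15.95 CPM, ceco-colonic 23.02, 19.96, 21.41 and 20.4 CPM, and duodenal 16.83, 18.67, 28.77 and 15.26 CPM. The ranges overlapped, with 13 of 16 gut libraries above all inguinal ones (log2 fold change 0.46 ± 0.124, edgeR adjusted p = 0.00816). Of the single positions only the ileum passed (0.71, adjusted p = 0.00168). With the replicate number as a block, ceco-colonic nodes passed too (0.41, edgeR adjusted p = 0.0444). Among the gut positions the adjusted p was 0.209, but 0.00584 without duodenal library 3, the highest duodenal library.

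Ackr4 did not follow the CCR7 ligands that its product takes up. Its correlation with Ccl21a was 0.1 over 20 libraries and -0.443 within positions, and with Ccl19 -0.07 and -0.412. The genes most like it were Oaf (r = 0.846), C1qtnf7 (0.832), Aldh1a3 (0.827) and Nid1 (0.825). Of 10 lymphatic endothelial genes 5 were higher in gut-draining nodes (13.4% of all genes), led by Pard6g (0.39), Foxc2 (0.86) and Ccl21d (0.77). In small intestinal against ceco-colonic nodes 9 were higher (8.9% of all genes), led by Cldn11 (1.08), Lyve1 (1.44) and Stab2 (0.96). The lone gene that was lower there was Ccl21d; its reads share the uncertainty of the other copies.

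Ackr2 differed among the gut positions, with lower levels in duodenal and jejunal nodes than in ceco-colonic nodes. It stood at 3.583, 4.728, 8.301 and 3.661 CPM in duodenal, 4.402, 5.553, 5.885 and 6.069 CPM in jejunal and 8.107, 8.959, 9.84 and 9.85 CPM in ileal libraries. Ceco-colonic libraries held 8.19, 11.92, 13.71 and 8.459 CPM, and inguinal libraries 9.586, 9.014, 5.759 and 7.967 CPM. Of the duodenal libraries, library 3 alone reached the ileal range. The adjusted p among gut positions was 0.00269 by edgeR, and small intestinal nodes were 0.74 below ceco-colonic nodes (adjusted p = 0.00617, or 0.0533 without ceco-colonic library 3). Gut-draining against inguinal nodes did not pass (-0.17 ± 0.178, adjusted p = 0.561).

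Ackr3, whose product takes up CXCL12, passed the test in none of the comparisons. Its means were 10.17 ± 3.524 CPM (SD, n = 4) in duodenal, 11.05 ± 2.48 in jejunal, 10.19 ± 0.3043 in ileal, 8.936 ± 0.6838 in ceco-colonic and 9.01 ± 0.7364 in inguinal nodes. The log2 fold change in gut-draining against inguinal nodes was 0.16 ± 0.138 (edgeR adjusted p = 0.458). Its Pearson correlation with Cxcl12 was -0.272 over 20 libraries, and the Spearman correlation was -0.048.

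Of 15 genes of the lymphotoxin and NF-kB pathway, which induces these chemokines, 7 were higher in gut-draining than in inguinal nodes and 2 were lower, Tnfrsf11a (-0.16) and Tnfsf14 (-0.30), beside 13.4% and 12.9% of all genes. Tnfsf11 was higher (43.24 ± 7.052 CPM, SD, n = 16, against 21.44 ± 1.633 CPM, n = 4, edgeR adjusted p = 7.295e-08), as were Map3k14 (0.43 ± 0.0575, 7.55e-06), which encodes the kinase NIK, and Chuk (0.34 ± 0.0533, 4.78e-05), which encodes IKK-alpha. The lymphotoxin gene Ltb (149.8 against 108.2 CPM), Relb (530.8 against 418.5 CPM) and Nfkb2 (454.4 against 356.5 CPM) also passed. The receptor Ltbr did not (70.77 against 70.21 CPM, adjusted p = 0.971). In small intestinal against ceco-colonic nodes 0 were higher and 3 lower: Tnfrsf11a (-0.25), Nfkb2 (-0.30) and Traf2 (-0.20). These 3 of 15 were near the 16.6% of all genes called there (8.9% higher and 7.74% lower). The list's summed level had medians of 2439 CPM in ceco-colonic, 2409 in ileal, 2185 in jejunal, 2039 in duodenal and 1930 in inguinal nodes. In inguinal nodes Cxcl13 had its highest mean, and Ccl19 and Ccl21a had their lowest. The list's part in the ligands' levels was not tested.

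Of 18 genes for further homing chemokines and for oxysterol and sphingosine guidance, 2 were higher and 6 lower in gut-draining nodes (13.4% and 12.9% of all genes). Ccr10, the receptor of skin-homing cells, had the smallest p (0.902 ± 0.1384 CPM, n = 16, against 11.43 ± 1.776 CPM, n = 4; log2 fold change -3.66, edgeR adjusted p = 8.63e-16). Of the enzymes that make the oxysterol ligand of EBI2, Cyp7b1 was higher (0.69) and Ch25h was lower (-0.67; edgeR adjusted p = 0.00304), the latter named after its value was seen. Spns2, the sphingosine phosphate exporter of lymphatic endothelium, was lower (-0.39). In small intestinal against ceco-colonic nodes 2 were higher and 6 lower (8.9% and 7.74% of all genes). The lower genes were led by Ccl20 (-2.28, at 0.0817 to 2.56 CPM over the 20 libraries), Cxcl16 (-0.39) and Sphk1 (-0.47).

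Among 18 genes of receptor signalling, desensitisation and ligand processing, 4 were higher and 4 lower in gut-draining nodes (13.4% and 12.9% of all genes). Dpp4, whose product truncates CXCL12, was higher (167.3 ± 18.48 CPM, n = 16, against 70.19 ± 6.874 CPM, n = 4; log2 fold change 1.25, edgeR adjusted p = 3.1e-09). Rgs1, which dampens G protein signalling, was higher (0.86), and Grk6, a receptor kinase, was lower (-0.34). In small intestinal against ceco-colonic nodes 1 was higher, Grk5 (0.21), and 6 were lower, with Dock2 (-0.22) and St8sia4 (-0.26) next in p. Of all genes 8.9% were higher and 7.74% lower in that comparison. St8sia4 encodes the polysialyltransferase that modifies CCR7.

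Markers of the cell types listed as possible sources were counted in the same way, against 13.4% of all genes higher and 12.9% lower. Of 10 fibroblastic reticular genes 4 were higher and 3 lower in gut-draining nodes, with Pdpn (0.69) and Grem1 (1.39) higher and Pdgfrb (-0.46) lower. Of 10 blood and high endothelial genes 1 was higher and 6 lower, led by Vwf (-0.96), Chst4 (-1.83) and Glycam1 (-1.48). Of 10 T cell genes 2 were higher and 3 lower, led by Trat1 (-1.86), Cd6 (1.61) and Cd28 (-0.88). Of 10 monocyte and neutrophil genes 1 was higher and 3 lower, led by Ccr2 (-0.84), Ly6g (-1.03) and Vcan (0.60). Ly6g was near the floor, between 0.0206 and 0.169 CPM over the 20 libraries. Smooth muscle genes had 4 of 10 lower, led by Synpo2 (-1.06), Mylk (-0.41) and Des (-0.52). Adipocyte genes had 2 of 10 higher, Lipe (0.56) and Adrb3 (1.85), and pancreatic genes 0 of 10.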

How the data were processed

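The submitters' processing notes name kallisto, limma and edgeR and the builds GRCm39 and mm10, with no versions and no role for either build. The gene table deposited by the authors holds expected counts (estimated counts per gene), and their transcript tables hold estimated counts and TPM. The gene table is scaled by transcript length: over 12483 genes with at least 500 estimated counts per library, 99.7% of values lay within 0.001 (log2) of summed TPM scaled by 1 length per gene and 1 factor per library, and 7.71% of values lay as close to plain sums. Rounded counts entered 1 quasi-likelihood fit of 20 libraries in edgeR 4.0.16 under R 4.3.3, with 1 mean per position and TMM factors; filterByExpr, grouped by position, required a count of 10 and a total of 15. CPM are TMM-scaled, and standard errors are model-based. A call is an adjusted p under 0.05 (Benjamini-Hochberg, every tested gene). Transcript shares were compared by exact permutation over libraries for transcripts at 5% or more of the gene. The procedure was tested on simulated data.

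The members and lists were chosen with earlier results of these data known. The rule named all members, the 3 called genes of each list with the smallest p, and the 4 genes most correlated with 6 members (mean of 5 CPM or more, log2 CPM with a prior count of 2). Reference transcripts came from GENCODE vM21 by transcript name; protein sequences were not used here. Alternatives were DESeq2 1.42.0, limma-voom (limma 3.58.1), other size factors, no filter, a replicate block, each library left out, summed transcript counts, summed Ccl21 copies, only the groups compared, and leaving out duodenal libraries 1 and 2. Leaving out the libraries numbered 1 and leaving out jejunal library 2 were chosen after seeing the data.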

Additional observations from a re-analysis of the deposited data

Results flagged for a closer look

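In 3 of 50 groups of 4 libraries, 1 library stood further from its neighbours than Dixon's 95% limit allows, a rate that chance gives in about 1 group in 20. Ccl19 was at 208 CPM in ileal library 4, against 277 to 290 CPM in the other ileal libraries. Ccl21a was at 3960 CPM in ceco-colonic library 2, against 3230 to 3300 CPM. Cxcr5 was at 4.5 CPM in duodenal library 4, against 2.51 to 2.72 CPM.

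In 16 of 60 tests (10 members, 6 pairs of gut positions) the difference from inguinal nodes was unequal at the 2 gut positions, by edgeR's quasi-likelihood test of the difference itself (log2, first minus second position). The inguinal level cancels in this difference, so these are the calls between gut positions already given, beside 0.068% to 16.4% of all genes in the 6 pairs. For Ccl19 it was -0.58 between jejunal and ceco-colonic nodes and -0.81 between ileal and ceco-colonic nodes. For Ccl21a it was -0.75 and -0.96 between the same nodes. The adjusted p of the jejunal difference was 0.0582 for Ccl19 without ceco-colonic library 1, and for Ccl21a 0.059 without jejunal library 2 and 0.0683 without ceco-colonic library 2. For Cxcl13 it was 1.65 between duodenal and jejunal, 1.10 between duodenal and ileal, -0.95 between duodenal and ceco-colonic, -2.60 between jejunal and ceco-colonic and -2.05 between ileal and ceco-colonic nodes. For Ccr7 duodenal nodes differed by -0.39 from ileal and by -0.39 from ceco-colonic nodes. For Cxcr5 the difference from ceco-colonic nodes was -0.76 in duodenal and -0.98 in ileal nodes. The duodenal difference in Cxcr5 missed the threshold without any 1 of 16 of the 20 libraries (adjusted p = 0.0527 to 0.13), while the fold stayed between -0.82 and -0.67. For Ackr2 it was -0.86 between duodenal and ileal, -1.06 between duodenal and ceco-colonic and -0.95 between jejunal and ceco-colonic nodes. The Ackr2 difference between duodenal and ileal nodes had an adjusted p of 0.0522, 0.057 or 0.0516 without duodenal library 1, 2 or 4, and of 0.051 or 0.0526 without ileal library 3 or 4.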

How the results depend on the processing

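Leaving out each library in turn gave 6 to 7 members called in gut-draining against inguinal nodes, 5 to 7 among gut positions, 4 to 7 in small intestinal against ceco-colonic nodes, 32 to 41 calls over the 10 pairs of positions (100 tests, 36 with all libraries), 2 to 3 transcript shares, and 6315 to 8152, 4922 to 6812 and 3575 to 5445 genes in the first 3 comparisons. With transcripts at 10% or more of the gene, 1 transcript share passed and not 3, since the Cxcl12 transcripts are then not tested. Signs changed only for values that missed the threshold in both fits: Cxcl12 in gut-draining against inguinal nodes (-0.0653 to 0.0345 over left-out libraries, the highest without inguinal library 4), Ackr2 there (0.02 without the libraries numbered 1), Ackr4 in small intestinal against ceco-colonic nodes (-0.0101 to 0.1102, the lowest without duodenal library 3), the share of Ackr2-201 (-0.948 points on estimated counts, and -1.567 to 2.919 over left-out libraries, the lowest without inguinal library 1) and that of Ackr4-204 (-0.053 to 1.296, the lowest without inguinal library 2). The cause was not tested. Over all results and alternatives, 2427 values kept their side of the threshold and any direction or, for counts of genes and transcripts, stayed of like size. A further 84 values no longer passed and 10 newly passed.

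The labels give the same numbers at each position. With the replicate number as a block, 7, 7 and 7 members were called in the first 3 comparisons and 41 over the pairs. The shares of all genes given above come from the fit without the block, so these counts have no background beside them. Under the block, Ccr7 (edgeR adjusted p = 0.0373) and Cxcr4 (0.0105) passed in small intestinal against ceco-colonic nodes, as did Cxcr4 among gut positions (0.0154). Deviations from position means had r over 0.1 in 13 of 40 same-number pairs (median 0.075, against -0.0209 for other pairs), and 17 of 20 libraries correlated best with their own number, a hint from the data and not the design. Depth limits Cxcr5 most, with 173 to 1553 estimated counts per library.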
